A study of Homo sapiens with 20 samples.

Results

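The MHC class I antigen presentation genes described here are 9 genes chosen by name: the heavy chains HLA-B, HLA-C and HLA-E, the light chain B2M, the peptide transporter subunits TAP1 and TAP2, the loading factor TAPBP and the trimming peptidases ERAP1 and ERAP2. All 9 were among the 27697 protein-coding and lncRNA genes tested. They were measured in NGP, an established human neuroblastoma cell line, in 10 samples treated with nutlin-3 (8 µM, a racemic mixture) and 10 samples given ethanol, the vehicle. The compound occupies the p53-binding pocket of MDM2 and so frees p53, and the treatment time is not given in the sources used here. Both groups are cultures of the same line grown in 6-well format. Culture, extraction and library batches are not given in the sources used here. Poly(A) RNA was sequenced, and the files held between 14455477 and 19532971 estimated counts per sample. In bulk samples, fewer cells with a transcript and less of it per cell cannot be told apart.

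Class I molecules show peptides from inside a cell to T cells. Peptides cut by the proteasome are pumped into the endoplasmic reticulum by the TAP1 and TAP2 dimer, trimmed by ERAP1 and ERAP2, and loaded with the help of TAPBP (tapasin) onto a heavy chain paired with B2M (beta-2 microglobulin). HLA-B and HLA-C are classical heavy chains, and HLA-E is a nonclassical one that is read mainly by natural killer cells. Neuroblastoma is known for low class I levels on the cell surface. In GENCODE release 44 (GRCh38), 6 of the 9 genes lie in the MHC on chromosome 6: HLA-E at chr6:30489509-30494194 (plus strand), HLA-C at chr6:31268749-31272130 (minus), HLA-B at chr6:31353872-31367067 (minus), TAP2 at chr6:32821833-32838739 (minus), TAP1 at chr6:32845209-32853816 (minus) and TAPBP at chr6:33299694-33314284 (minus). B2M lies at chr15:44711358-44718851 (plus), and ERAP1 (chr5:96760810-96808100, minus) and ERAP2 (chr5:96875986-96919703, plus) are neighbours on chromosome 5.

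The treatment was visible in both of the p53 targets used to check it. MDM2 had 245 ± 33.2 CPM (estimated counts scaled to library size, mean ± SD, n = 10) with vehicle and 5564 ± 382 CPM with nutlin, and CDKN1A, the p21 cell-cycle inhibitor, had 32.8 ± 11.3 and 1679 ± 159 CPM. The line's own markers were high, with the 7 neuroblastoma markers summing to between 3864 and 4573 CPM in vehicle samples and between 4574 and 5904 CPM in nutlin samples. Of these 7, 3 rose, TH by most (log2 fold change 0.62), 3 fell and 1 did not pass. Markers of other cell types also moved with the treatment, in a comparison where 58.8% of all tested genes passed. The 6 leukocyte markers summed to between 0.781 and 2.68 CPM with vehicle and between 4.17 and 9.39 CPM with nutlin; 2 of the 4 tested, ITGAM and CD68, rose, CD14 had 0.641 and 0.333 CPM and did not pass (edgeR adjusted p = 0.0711), PTPRC never passed 0.394 CPM and CD3E had 0 counts. The 5 fibroblast and endothelial markers summed to between 23.8 and 28.8 CPM and between 40.2 and 53.1 CPM, with PDGFRB and COL1A1 holding most. COL1A1 and PECAM1 (log2 fold change 1.54) rose, whereas PDGFRB fell. COL1A2 (0.14, edgeR adjusted p = 0.811) and the endothelial marker CDH5 (-0.68, edgeR adjusted p = 0.436) did not pass. Their part in the results on the class I genes was not tested.

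Of the 9 class I genes, 5 rose after nutlin, 1 fell and 3 did not pass the 5% false discovery rate (FDR) of edgeR's quasi-likelihood test. Over all tested genes 58.8% passed, 32.3% upward and 26.5% downward, so a changed gene is common in this comparison. The 5 that rose were HLA-B, HLA-C, TAPBP, ERAP1 and ERAP2, the gene that fell was B2M, and HLA-E, TAP1 and TAP2 made up the rest. The median log2 fold change was 0.51 over the class I genes and 0.19 over all tested genes. Over all transcripts of HLA-C and ERAP1, every nutlin sample lay above every vehicle sample, which held for 12.2% of all tested genes. In B2M every nutlin sample lay below every vehicle sample, which held for 16.6%.

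**Figure D1:**
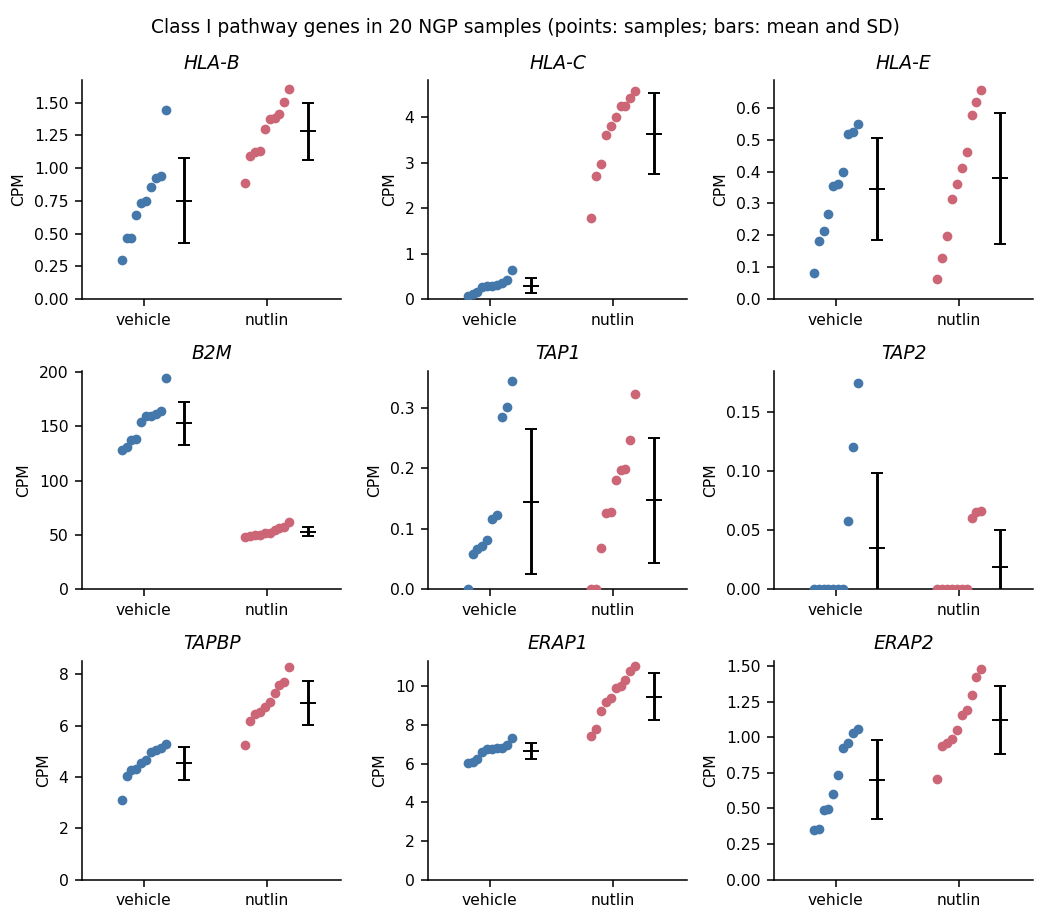
Library-scaled counts (CPM, linear axes from 0) of the 9 class I genes in each of 10 vehicle and 10 nutlin samples, with points ordered by value within a group and bars at the mean ± SD, cut off at 0. HLA-C and ERAP1 are separated upward and B2M downward, while HLA-E, TAP1 and TAP2 overlap throughout at under 1 CPM.

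The levels of the 9 genes were very unequal. On the TPM scale, which accounts for transcript length, B2M led in vehicle samples with a mean of 326 ± 30.7 TPM (SD, n = 10), followed by ERAP1 (2.001 ± 0.543 TPM), TAPBP (1.35 ± 0.218 TPM), HLA-B (0.831 ± 0.282 TPM) and ERAP2 (0.593 ± 0.445 TPM). HLA-C (0.360 ± 0.220 TPM), HLA-E (0.149 ± 0.0676 TPM), TAP1 (0.0651 ± 0.0504 TPM) and TAP2 (0.0127 ± 0.0200 TPM) were lower still. B2M stood apart from ERAP1, and ERAP1 from TAPBP, in every vehicle sample, whereas each later neighbour in this order overlapped the next. In nutlin samples the order was B2M (110 ± 6.59 TPM), ERAP1 (3.68 ± 0.912 TPM), HLA-C (3.30 ± 0.893 TPM), TAPBP (2.04 ± 0.329 TPM), HLA-B (1.37 ± 0.262 TPM), ERAP2 (0.887 ± 0.485 TPM), HLA-E (0.173 ± 0.105 TPM), TAP1 (0.0665 ± 0.0476 TPM) and TAP2 (0.00766 ± 0.0112 TPM). HLA-C thus moved from the sixth place to the third, and its range overlapped those of ERAP1 and TAPBP. B2M again stood apart, and each later neighbour in the order overlapped the next.

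Over all its transcripts, HLA-C was the class I gene with the largest change. Its CPM in vehicle samples had a lowest value of 0.0664, a median of 0.288 and a highest value of 0.640, against 1.78, 3.91 and 4.59 in nutlin samples. The lowest nutlin sample was therefore still above the highest vehicle sample, and the groups did not overlap. The log2 fold change was 3.62 (SE 0.23, edgeR adjusted p = 1.31e-14), a 12.3-fold rise with a 95% confidence interval from 8.91 to 17.0. On protein-coding transcripts only, the log2 fold change was 1.68 (edgeR adjusted p = 0.00132), close to that of HLA-B counted in the same way. Counted so, HLA-C ran from 0 to 0.498 CPM with vehicle and from 0 to 1.36 CPM with nutlin, and the groups overlapped. These values rest on few reads, since all 10 vehicle samples together held 44.2 estimated counts of HLA-C and all 10 nutlin samples 571.

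HLA-B moved by less over all its transcripts. It had a lowest, median and highest value of 0.301, 0.740 and 1.45 CPM with vehicle and of 0.889, 1.34 and 1.61 CPM with nutlin. The groups overlapped, with 2 nutlin samples above the highest vehicle sample, yet all 10 nutlin samples lay above the vehicle median. Its log2 fold change was 0.78 (SE 0.20, edgeR adjusted p = 0.00142), or 1.71-fold. On protein-coding transcripts only, it was 1.68 (SE 0.80) and did not pass (edgeR adjusted p = 0.0751). Within a sample, the ratio of HLA-B to HLA-C counts changed sides: the mean log2 ratio was 1.34 ± 0.87 (SD, n = 10) with vehicle and -1.45 ± 0.32 with nutlin, a difference of -2.79 (SE 0.29, permutation test, two-sided, p = 6e-05, adjusted over 4 ratios 0.00012). HLA-C had fewer counts than HLA-B in 9 of 10 vehicle samples and more in all 10 nutlin samples. This switch includes retained-intron transcripts. On protein-coding transcripts only, HLA-C held 32 rounded counts and HLA-B 13 over the vehicle samples, and 108 and 46 over the nutlin samples. Coding HLA-B transcripts are partly missing from those the reads were counted on, so the coding values of HLA-B may miss coding RNA.

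HLA-E did not pass the test. Its CPM ran from 0.0813 over a median of 0.358 to 0.550 with vehicle, and from 0.0617 over 0.385 to 0.657 with nutlin. The groups overlapped almost fully. The log2 fold change was 0.10 with a 95% interval from -0.58 to 0.79, so a change of up to 1.73-fold in the upward direction lies within the interval. Summed to 1 feature before the fit, the 3 heavy chains rose 3.81-fold (log2 1.93, edgeR adjusted p = 3.87e-12).

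B2M went the other way. Its lowest, median and highest values were 128, 156 and 194 CPM with vehicle and 47.8, 52.1 and 61.9 CPM with nutlin, and no nutlin sample came near the vehicle range. The log2 fold change was -1.52 (SE 0.06, edgeR adjusted p = 3.81e-19), so that vehicle samples had 2.88 times the nutlin level. The few counts on transcripts typed as protein-coding (82 and 46) gave -0.84 and did not pass (edgeR adjusted p = 0.263). A coding B2M transcript, B2M-211, is missing from those the reads were counted on, so these few counts cannot test the fall. B2M is the deepest measured of the 9 genes, with 23145 estimated counts over the vehicle samples and 8297 over the nutlin samples. Set against the 3 heavy chains in the same sample, B2M counts were 111 times their sum with vehicle and 10.1 times with nutlin (geometric means). Counts are not scaled to transcript length, and with sums of TPM the mean log2 ratio differed by -3.11, nutlin minus vehicle. For counts, the values were as follows. The mean log2 ratio went from 6.79 ± 0.44 (SD, n = 10) to 3.34 ± 0.38, a difference of -3.45 (SE 0.18, two-sided permutation test p = 6e-05, adjusted 0.00012), and no sample of either group entered the range of the other.

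**Figure D2:**
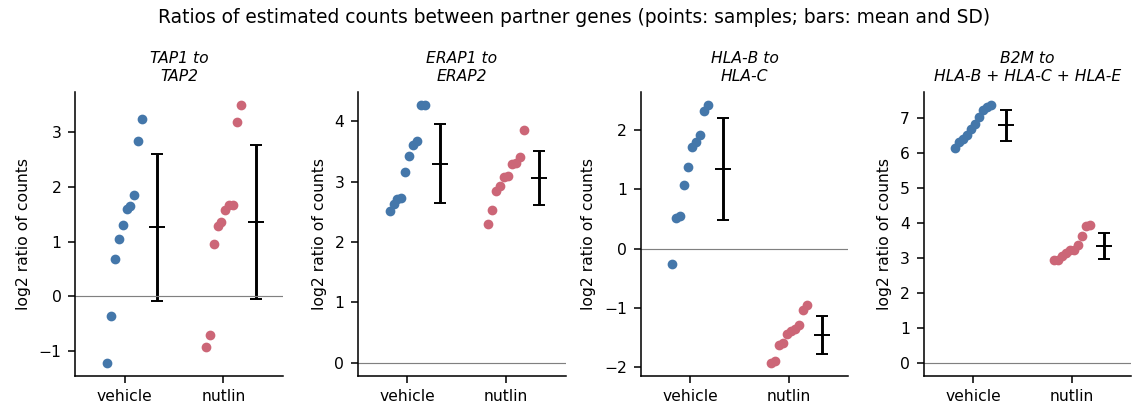
Log2 ratio of estimated counts between partner genes in each of 10 vehicle and 10 nutlin samples, with bars at the mean ± SD. The ratio of HLA-B to HLA-C and that of B2M to the 3 heavy chains separate the groups, while TAP1 to TAP2 and ERAP1 to ERAP2 overlap.

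The transporter subunits had few counts on the transcripts matched to them. The 7862 transcripts of the index without a GENCODE 44 identifier were not assigned to genes. Reads on them are missing from the levels and ratios given here, including the ratio of B2M to the heavy chains. Some may be copies of TAP1, TAP2 or the other genes of the MHC on alternative haplotypes, which was not tested. TAP1 had a lowest, median and highest value of 0, 0.0983 and 0.344 CPM with vehicle and of 0, 0.154 and 0.322 CPM with nutlin. Its log2 fold change was 0.02 with a 95% interval from -1.01 to 1.05. TAP2 had a median of 0 CPM in both groups, with a highest value of 0.175 CPM with vehicle and 0.0661 CPM with nutlin, and 6.85 and 4.30 estimated counts in all. With these counts no change was detectable in TAP2, whose log2 fold change of -0.78 had an interval from -2.42 to 0.86. The log2 ratio of TAP1 to TAP2 was 1.27 ± 1.34 and 1.36 ± 1.41 (SD, n = 10), a difference of 0.09 (SE 0.62) that did not pass the permutation test (adjusted p = 0.881).

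TAPBP, which bridges TAP and the heavy chain, rose 1.52-fold. It had a lowest, median and highest value of 3.10, 4.60 and 5.28 CPM with vehicle and of 5.23, 6.81 and 8.27 CPM with nutlin. Of the nutlin samples, 9 lay above the highest vehicle sample, and the remaining sample fell just under it. The log2 fold change was 0.60 (SE 0.09, edgeR adjusted p = 1.39e-06).

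Both trimming peptidases rose. ERAP1 had 6.04, 6.76 and 7.31 CPM (lowest, median, highest) with vehicle and 7.40, 9.65 and 11.1 CPM with nutlin, with no overlap and a log2 fold change of 0.51 (SE 0.07, edgeR adjusted p = 4.61e-07). ERAP2, its neighbour on chromosome 5, had 0.350, 0.668 and 1.06 CPM with vehicle and 0.706, 1.10 and 1.48 CPM with nutlin. The groups overlapped, with 5 nutlin samples above the highest vehicle sample. The log2 fold change of ERAP2 was 0.68 (SE 0.21, edgeR adjusted p = 0.00580). A change in the balance between the peptidases was not detected, since the log2 ratio of ERAP1 to ERAP2 was 3.30 ± 0.66 and 3.06 ± 0.45 (SD, n = 10), a difference of -0.24 (SE 0.25, permutation test adjusted p = 0.469). With sums of TPM the difference had the other sign, 0.38, and did not pass either (permutation test adjusted p = 0.301).

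**Figure D3:**
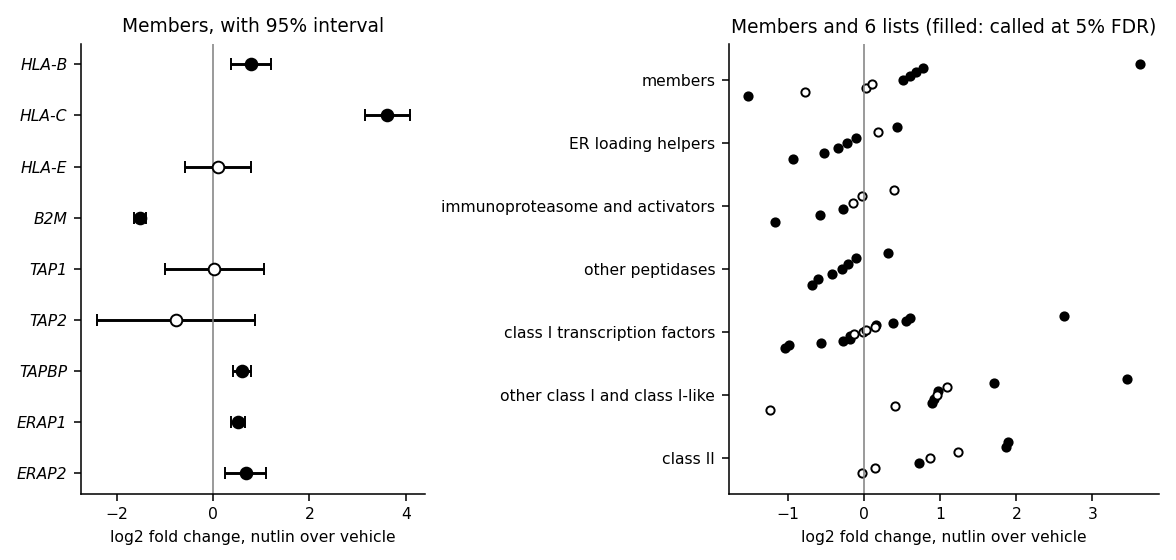
Log2 fold change of nutlin over vehicle for the 9 class I genes with 95% confidence intervals (left) and for these genes beside 6 other lists of the pathway (right, 1 point per tested gene); filled points passed 5% FDR. HLA-C lies at 3.62 and B2M at -1.52, and MR1, at 3.46, is the list gene nearest to HLA-C.

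The rest of the pathway was read from lists of genes around these 9, and 51 of the 57 genes on 6 lists could be tested. Over all tested genes 32.3% rose and 26.5% fell, so the counts of calls in each list below describe genes and were not tested as sets. Of the 7 helpers of folding and loading in the endoplasmic reticulum, 5 fell and 1 rose. PDIA3 (ERp57), the disulphide partner of tapasin, fell by 0.94 on the log2 scale (edgeR adjusted p = 1.49e-19), from 358 ± 25.8 to 187 ± 5.57 CPM. The chaperones CALR (-0.23) and CANX (-0.35) fell by less, SEC61A1, a subunit of the translocon, rose by 0.43, and TAPBPL, a tapasin relative, had 0.19 and did not pass (edgeR adjusted p = 0.200).

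Of the 7 immunoproteasome and activator genes, 6 were tested and 3 fell while 3 did not pass. PSMB8 was at 0 in every sample. PSMB9 (log2 fold change 0.39, edgeR adjusted p = 0.360) and PSMB10 (-0.15, edgeR adjusted p = 0.146) did not pass. POMP, the chaperone of proteasome assembly, fell by 1.17 on the log2 scale, from 153 ± 18.7 to 68.2 ± 7.11 CPM. Among the 7 other peptidases that can act on cytosolic or vesicular peptides, 6 fell, LAP3 by most (-0.69), and LNPEP, a relative of the ERAP enzymes, rose (0.32).

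Among the 15 transcription factors tied to class I promoters, 5 rose, 6 fell and 4 did not pass. NLRC5, the class I transactivator, had a lowest, median and highest value of 0, 0.0956 and 0.173 CPM with vehicle and of 0.188, 0.571 and 0.821 CPM with nutlin. The groups did not overlap, and the log2 fold change was 2.63 (SE 0.39, edgeR adjusted p = 7.13e-07), from 13.0 estimated counts in all vehicle samples to 89.1 in all nutlin samples. IRF1, which binds interferon response elements, rose by 0.59 from 1.42 ± 0.217 to 2.15 ± 0.405 CPM. The RFX complex that works with NLRC5 moved unevenly: RFX5 rose by 0.55, RFXAP fell by 1.04, and RFXANK did not pass.

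Of 9 other class I and class I-like genes, 5 rose and 4 did not pass. MR1, which presents small metabolites to mucosal-associated T cells, had 0.924, 1.15 and 2.89 CPM (lowest, median, highest) with vehicle and 11.9, 14.5 and 19.4 CPM with nutlin, without overlap. Its log2 fold change was 3.46 (SE 0.14, edgeR adjusted p = 3.82e-19). HLA-F stayed near the limit of detection, with 6.77 and 9.52 estimated counts in all and a log2 fold change of 0.40 (edgeR adjusted p = 0.695).

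The promoters of HLA-B, HLA-C and TAPBP, which rose, and of B2M, which fell, are shown so that the letters they share can be set beside their unlike changes. RefSeq (GRCh38.p14) gave a promoter for 8 of the 9 genes, HLA-E not among them. Each line holds the 250 bases before the RefSeq start on the gene's own strand, 5′ to 3′, at chr6:31357180-31357429 (minus strand) for HLA-B, chr6:31272093-31272342 (minus) for HLA-C, chr15:44711267-44711516 (plus) for B2M and chr6:33314079-33314328 (minus) for TAPBP. Capitals mark matches, on either strand, to the core of the interferon-stimulated response element (ISRE), spelled GAAA, NN, GAAA, to the kB consensus bound by NF-kB, and to the CCAAT box bound by NFY.
HLA-B: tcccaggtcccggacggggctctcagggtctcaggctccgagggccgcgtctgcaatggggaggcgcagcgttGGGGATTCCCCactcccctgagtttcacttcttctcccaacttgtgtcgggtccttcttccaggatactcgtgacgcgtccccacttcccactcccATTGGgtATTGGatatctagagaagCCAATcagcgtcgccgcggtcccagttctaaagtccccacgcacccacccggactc
HLA-C: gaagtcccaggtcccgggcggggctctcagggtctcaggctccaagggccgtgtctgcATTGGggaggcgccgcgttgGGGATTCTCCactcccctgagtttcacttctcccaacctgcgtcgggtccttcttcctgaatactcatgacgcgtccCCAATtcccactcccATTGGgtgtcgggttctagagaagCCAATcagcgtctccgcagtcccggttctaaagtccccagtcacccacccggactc
B2M: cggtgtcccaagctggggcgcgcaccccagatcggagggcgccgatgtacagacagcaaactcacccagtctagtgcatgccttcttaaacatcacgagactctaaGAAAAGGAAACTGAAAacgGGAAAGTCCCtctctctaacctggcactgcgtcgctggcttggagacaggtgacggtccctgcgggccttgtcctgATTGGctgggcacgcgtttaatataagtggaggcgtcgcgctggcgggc
TAPBP: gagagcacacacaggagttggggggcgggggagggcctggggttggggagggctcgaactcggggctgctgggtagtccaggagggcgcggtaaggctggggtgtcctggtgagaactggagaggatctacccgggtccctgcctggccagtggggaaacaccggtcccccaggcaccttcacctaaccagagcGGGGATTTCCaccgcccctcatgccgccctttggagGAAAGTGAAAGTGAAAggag

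In the full window, which adds 50 bases after the start, the ISRE core was found in 5 of the 8 promoters (B2M, TAP1, TAP2, TAPBP and ERAP1) and in 3.57% of all 35116 RefSeq promoters of this length. A kB match was found in 6 of 8 (5.91% of all), a CCAAT box in 5 of 8 (34.6%) and the letters TGACG, the core of the X2 element, in 4 of 8 (24.6%). The E-box CACGTG (7.26% of all promoters) and the p53 half-site consensus (6.63%) were matched in 0 of 8. In HLA-B the capital run at the kB site holds 2 overlapping matches, both found on each strand. HLA-B and HLA-C, which rose by unlike amounts, hold the same kinds of match: kB, CCAAT and TGACG, and no ISRE core with these letters. B2M, which fell, holds 2 overlapping ISRE cores beside its kB match, and TAPBP, which rose, likewise holds 2 overlapping ISRE cores. ERAP2, which rose, holds a match to none of the 6 motifs searched. A match is a stretch of letters and no evidence that a factor was bound.

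The transcripts behind these counts differed between the genes. TAPBP, ERAP1, TAP2 and HLA-E were counted almost wholly on protein-coding transcripts, with at least 91.7% of the estimated counts in either group. HLA-B was not: retained-intron transcripts took 88.7% of its counts with vehicle and 76.9% with nutlin. TAP1 was counted on a single retained-intron transcript, TAP1-202, in all but 1.28 of its counts. For B2M, 95.6% and 93.2% of counts fell on transcripts that GENCODE release 44 types as subject to nonsense-mediated decay. This says little about coding RNA, because every 31-mer of the coding B2M transcript missing from the index, B2M-211, also occurs in the indexed B2M transcripts.

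**Figure D4:**
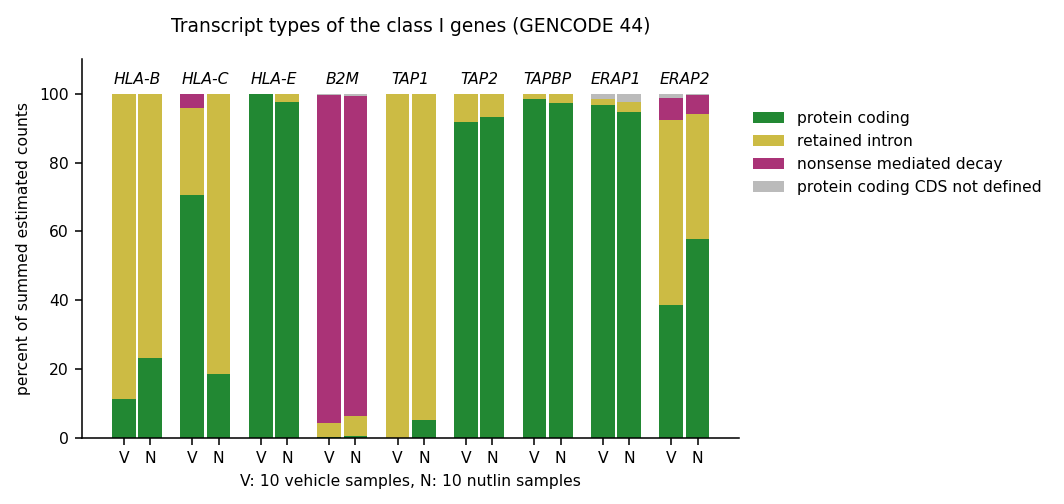
Percent of the summed estimated counts of each class I gene on each GENCODE 44 transcript type, for 10 vehicle samples (V) and 10 nutlin samples (N). HLA-C shifts from 25.3% to 81.4% retained intron, and B2M is counted on transcripts typed as nonsense-mediated decay in both groups.

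HLA-C changed its make-up with treatment. Its retained-intron transcripts held 11.2 of 44.2 estimated counts over the vehicle samples and 464 of 571 over the nutlin samples, a shift from 25.3% to 81.4%. Averaged over samples, the protein-coding share went from 66.2% ± 28.3 to 22.04% ± 18.6 (SD, n = 10), a difference of -44.1 percentage points (SE 10.7, two-sided permutation test adjusted p = 0.0140). HLA-C-208, the transcript with the highest mean count over all 20 samples, took 0% in every vehicle sample and 28.9% ± 22.2 in nutlin samples; it leads only through the nutlin group, so this share is a description and not a test. In vehicle samples these shares rest on between 1 and 8.88 estimated counts a sample. The rise of HLA-C on protein-coding transcripts only, given above as 1.68 on the log2 scale, had an SE of 0.43.

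In ERAP1 the leading coding transcript, ERAP1-202, lost share to the others, from 88.6% ± 6.52 to 76.3% ± 8.201 (SD, n = 10, permutation test adjusted p = 0.00864). This adjustment counted the HLA-C-208 share among its 9 genes, and the unadjusted permutation p was 0.00192. The protein-coding share of ERAP1 as a whole was 96.6% and 94.8% and did not pass (permutation test adjusted p = 0.522). For the 7 other genes neither share passed the test. ERAP2 had the largest difference in protein-coding share among them, with 39.2% ± 14.05 and 59.3% ± 24.0 (permutation test adjusted p = 0.125).

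HLA-C and HLA-B lie close together on the minus strand of chromosome 6. Other than HLA-B, GENCODE lists 6 features over 200 bases that begin between HLA-C and the start of the coding HLA-B transcript and have rows in the files. All 6 had more than 10 times the counts with nutlin. With all gene types in the fit, 27.9% of 36016 features rose at 5% FDR, and the share that rose over 10-fold is not given here. MIR6891, with 93 bases below this size, also begins in the interval and had 0 counts in both groups. Together the 6 went from 13.5 to 1519 estimated counts summed over 10 samples a group, across 82.1 kb (chr6:31275572-31357637). The last of them overlaps HLA-B, whose own counts went from 113 to 201.

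WASF5P, a pseudogene on the same strand as HLA-C, had a lowest, median and highest estimated count of 0, 0 and 1 with vehicle and of 23, 43 and 58 with nutlin. LINC02571, a lncRNA also on the minus strand, had 0 counts in every vehicle sample and 11, 19 and 42 counts with nutlin, which makes it at least 78.7-fold higher against a floor of 3 counts over the group. The minus-strand pseudogene ENSG00000229836 went from 3 to 202 counts in all. In each of these features the nutlin samples lay above every vehicle sample. In CPM this held for 12.2% of the tested protein-coding and lncRNA genes, and the share among pseudogenes is not given here.

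The features on the opposite, plus strand behaved alike. USP8P1, the pseudogene next to HLA-C, went from a summed count of 1.002 to 401, RPL3P2 from 8.03 to 180, and ENSG00000271581, which overlaps the start of HLA-B on the other strand, from 0.448 to 92.8. With all gene types in the fit, 27.9% of 36016 features rose, and the 4 of these 6 that could be tested rose by between 4.24 (RPL3P2, SE 0.35) and 7.55 (WASF5P, SE 0.35) on the log2 scale (edgeR adjusted p = 3.93e-12 and 4.46e-18). On the TPM scale the highest of them with nutlin was ENSG00000229836 (8.71 ± 2.30 TPM, SD, n = 10), above HLA-C (3.30 ± 0.893 TPM), while USP8P1 reached 0.872 ± 0.325 TPM.

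Outside this interval the features on either side had few counts in both groups. ENSG00000255726 and ENSG00000255899 went from 0 to 3 counts each, FGFR3P1 from 0 to 1 and ZDHHC20P2 from 0 to 2, and DHFRP2, inside the extended HLA-B locus, was at 0 throughout. MICA, the next coding gene in this direction and a stress ligand of natural killer cells, had 20.8 and 41.9 counts in all (log2 fold change 0.91, edgeR adjusted p = 0.0453, and 0.0573 with all gene types in the fit). The library kit was stranded, but whether strand was used in the counting is not given in the sources used here, so reads of overlapping features on opposite strands may not be separable. Whether HLA-C counts began at its own start or belonged to RNA running through the interval was not tested.

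**Figure D5:**
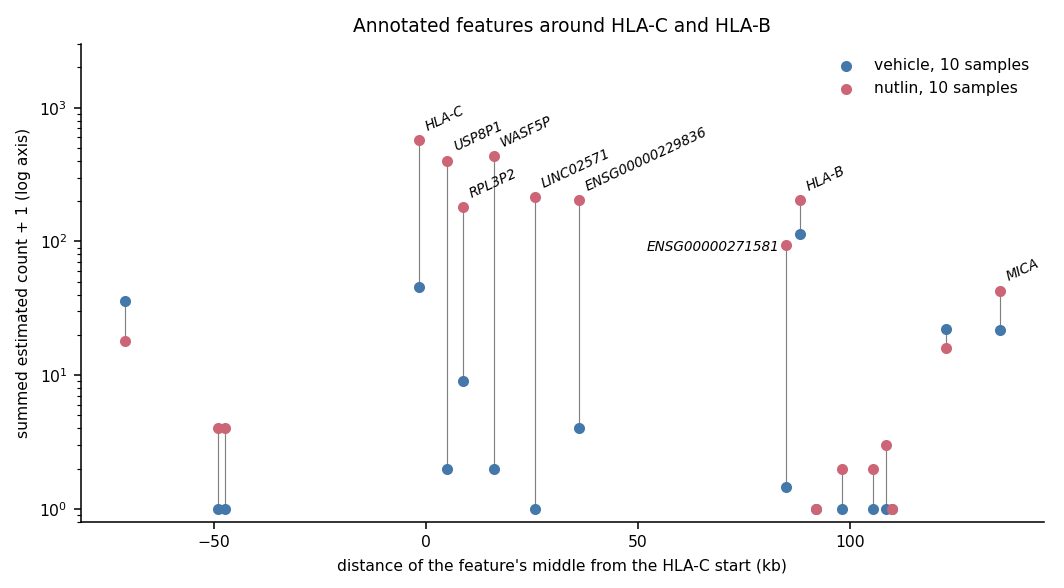
Summed estimated count + 1 (log axis) over 10 vehicle and 10 nutlin samples for annotated features around HLA-C and HLA-B, against the distance of each feature's middle from the HLA-C start in kb. The 6 features from USP8P1 to ENSG00000271581 lie between 0 and 8.03 counts with vehicle and between 92.8 and 432 with nutlin, and features farther out stay low or alike in both groups.

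Reads of related genes can be misassigned among the class I loci. Of the 31-mers of the indexed transcripts, 34.2% in HLA-B, 16.8% in HLA-C and 11.8% in HLA-E also occur in transcripts of another gene, against 0.445% in B2M. HLA-B and HLA-C share 272 of them, which is 5.94% of those of HLA-B and 10.2% of those of HLA-C. The counts were made on reference alleles, and how near the line's own alleles are to them was not tested.

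The genes most like HLA-C over the 20 samples were sought among 15167 others with a mean of at least 1 CPM, by the root mean square difference in log2 CPM (plus 0.5) relative to the vehicle mean. The nearest was the histone gene H2AC6 (difference 0.252), followed by the homeobox gene EMX1 (0.263), the lncRNA ENSG00000277453 (0.265), the lncRNA PVT1 (0.271) and the phosphatase inhibitor gene PPP1R14C (0.273). Their edgeR log2 fold changes ran from 2.46 (PVT1) to 6.66 (PPP1R14C), against 3.62 for HLA-C. The added 0.5 CPM damps the change of genes with low vehicle levels, so nearness here is no equal fold change. None of the class I genes came near these values: HLA-B was the closest at 1.34 and B2M the farthest at 2.77. HLA-C had the largest change among them, so their distance from it was largely set in advance.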

How the data were processed

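RNA of 10 vehicle and 10 nutlin samples of NGP cells was sequenced from stranded poly(A) libraries (paired 75 nt reads). Per the submitters' processing notes the genome was hg38, and the authors used kallisto 0.42.4 with transcripts of Ensembl release 85. The deposited files give, per transcript and sample, an estimated count, an effective length and TPM; whether strand was used is not given in the sources used here. For this report, estimated counts were summed per gene with GENCODE release 44, which matched 191106 of 198968 transcripts (between 95.7% and 96.8% of the estimated counts per sample), and rounded. Protein-coding and lncRNA genes entered the fit where each condition held 1 count or more. edgeR 4.0.16 (quasi-likelihood F-test, TMM, Benjamini-Hochberg at 5% FDR over all 27697 genes) compared nutlin with vehicle, with condition as the only term. The standard error is the log2 fold change over the root of F. Ratios (pseudocount 0.5) and transcript shares were compared by two-sided permutation tests with 100000 resamples, adjusted over 4 ratios or 9 genes. Estimated counts of 10 samples a group were never identical between samples. The edgeR p-values set the group difference against the spread between samples, with information shared across genes. Permutation p-values set it against shuffled group labels.

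Named genes were all 9 members, from each other list the called genes with the largest rise and fall at a mean of at least 1 CPM, a set of pathway genes named whatever their result, the treatment checks, and the 5 genes most like the member with the largest change. RFX5, RFXANK, CD68, CD14, PTPRC, CD3E, PECAM1, COL1A2, CDH5, CIITA, HLA-DMA, HLA-DQA1, HLA-DRB1, HLA-DQB1, MICA, MICB, HFE, ULBP1, ULBP2, ULBP3 and the features around HLA-C and HLA-B were named after their values were seen. A few genes that the rule names are not reported here. The members and lists were chosen with earlier results of these data known. Alternatives were DESeq2 1.42.0, its size factors, limma 3.58.1 (voom), another filter, FDR, unit, pseudocount or length offset, unmatched transcripts in the library sizes, summed heavy chains and a replicate block; after the data were seen, all gene types and coding transcripts only were added. The fit was tested on simulated data. Python 3 tools (SciPy, pandas) did the rest.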

Additional observations from a re-analysis of the deposited data

Results flagged for a closer look

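Of the annotated features from HLA-C to the start of HLA-B, 6 stood out because they lie outside the comparisons of coding and lncRNA pathway genes and had counts with nutlin far above those with vehicle. Summed over 10 samples a group, the estimated count with nutlin was 401 for USP8P1 (vehicle 1.002), 180 for RPL3P2 (vehicle 8.03), 432 for WASF5P (vehicle 1), 212 for LINC02571 (vehicle 0), 202 for ENSG00000229836 (vehicle 3) and 92.8 for ENSG00000271581 (vehicle 0.448). Scaled to the total counts of each group, without TMM, the ratio was 447 for USP8P1 (95% counting interval 79.7 to 17689) and 481 for WASF5P (85.9 to 19053). It was 75.01 for ENSG00000229836 (25.3 to 367) and 25.1 for RPL3P2 (12.5 to 58.9). These intervals cover counting error only. Such ratios are another measure than the edgeR log2 fold changes with all gene types in the fit, which were 7.44 for USP8P1 and 7.55 for WASF5P. ENSG00000271581, with under 1 count in all vehicle samples, was at least 34.5-fold higher against a floor of 3 counts over the group. They were counted on both strands, and HLA-C, which borders them, is described above. No sample of a class I gene or of a partner ratio stood far enough from the rest of its group to be singled out in the 26 groups examined, where chance alone would single out about 1 in 20.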

How the results depend on the processing

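The 5 class I genes called higher and the 1 called lower kept their direction and their call with DESeq2 and its size factors, limma voom, the stricter low-count filter, the length offset, unmatched transcripts in the library sizes, all gene types and 1% FDR. The filter on low counts dropped HLA-E, TAP1 and TAP2, leaving 6 of 9 genes. The other pathway genes gave 15 higher and 20 lower calls, with ranges of 12 to 16 and 16 to 21 over the settings. Counted on protein-coding transcripts only, a setting chosen after seeing the data, 4 class I genes were higher and 0 lower. HLA-B (log2 fold change 1.68, edgeR adjusted p = 0.0751) and B2M (-0.84, edgeR adjusted p = 0.263) then lost their calls. B2M kept only 82 and 46 counts there. Coding transcripts of both genes are missing from the index, and reads of them may be counted on other types. This setting therefore cannot test the fall of B2M and is a weak test of HLA-B. The log2 fold change of HLA-C ran from 1.68 to 3.70, and those of HLA-E (-0.01 to 0.28) and TAP1 (-0.13 to 0.07) crossed 0 without a call.

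Replicate numbers did not pair the samples: over 8 shared numbers the mean correlation of deviations was 0.0136 (from -0.027 to 0.0732), against -0.00117 for different numbers. With the number as a replicate block (16 samples) 5 class I genes were higher and 1 lower, and the other pathway genes gave 13 higher and 17 lower calls. The share of the leading HLA-C transcript, a description as said above, then differed by 26.3 percentage points. That of ERAP1 differed by -14.7 (exact sign-flip permutation test adjusted p = 0.0703) and the protein-coding share of HLA-C by -47.1 (0.211), neither past the threshold. With 8 pairs the smallest possible p is 0.00781, which for a single gene among 9 becomes 0.0703 after adjustment, so this test could not call 1 gene alone and says nothing about the stability of these shares. No other result on the class I genes themselves changed its call under the block. Adding transcripts of alternative MHC haplotypes was not run, because the reference tables used here do not pair their identifiers with symbols. HLA-E, TAP1 and TAP2 had at most 60.0 estimated counts over 10 samples, which limits the precision of their values.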

Other observations

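The class II pathway, which presents peptides from outside the cell and is normally kept to immune cells, was measured at low levels in most of its genes. Of its 12 genes 7 were tested, 3 rose and 4 did not pass, where 32.3% of all tested genes rose. CD74, the invariant chain, rose from 0.504 ± 0.214 to 1.89 ± 0.247 CPM (SD, n = 10; log2 fold change 1.89, edgeR adjusted p = 2.54e-10) and HLA-DMA, a peptide exchange factor, from 0.315 ± 0.1003 to 1.17 ± 0.378 CPM (1.86, edgeR adjusted p = 3.05e-08). CIITA, the class II transactivator, had 6.91 ± 0.542 and 6.78 ± 0.693 CPM (log2 fold change -0.03) and did not pass (edgeR adjusted p = 0.751), and neither did HLA-DQA1, an alpha chain, with 1.06 ± 0.116 and 1.17 ± 0.363 CPM. HLA-DRA was counted at 0 with vehicle and 2 with nutlin over 10 samples a group, and HLA-DRB1 and HLA-DQB1 at 0 in both.

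Among the class I-like ligands of natural killer receptors, ULBP1 rose from 0.464 ± 0.153 to 1.55 ± 0.437 CPM (log2 fold change 1.70, edgeR adjusted p = 1.77e-08) and ULBP2 from 0.917 ± 0.181 to 1.71 ± 0.425 CPM (0.89, edgeR adjusted p = 3.07e-05). ULBP3 (1.08, edgeR adjusted p = 0.0953) and MICB (0.96, edgeR adjusted p = 0.0647) did not pass. HFE, a class I-like protein of iron uptake, rose by 0.97 on the log2 scale (edgeR adjusted p = 0.0134).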
